A study of Mus musculus with 6 samples.

Results

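GABA-A receptors are the chloride channels through which the transmitter GABA inhibits neurons within milliseconds. Each receptor is a ring of subunits drawn from several families. The usual receptor of the synapse combines alpha and beta subunits with a gamma subunit, whereas delta replaces gamma in many receptors outside the synapse that sense low ambient GABA. The alpha subunit sets much of the response to benzodiazepines, and the beta subunit lines the GABA binding site together with alpha and is needed for assembly. Reduced cortical inhibition and hyperexcitability of the motor cortex are well known features of amyotrophic lateral sclerosis, which gives these genes their interest in this tissue.

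The members are the genes named Gabra2, Gabra3, Gabra4, Gabra5, Gabrb1, Gabrb2 and Gabrd in the deposited table, 7 of its 33182 genes. They cover 4 alpha subunits, 2 beta subunits and the delta subunit. Other subunit genes of the receptor are not analysed here, so the values describe these 7 transcripts and not the whole receptor pool. All 7 passed the filter for testing, a mean of at least 0.5 FPKM (fragments scaled to transcript length and library size) over the 6 libraries, which 15740 genes met.

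The tissue was motor cortex at day 120 from SOD1G93A mice, which carry a mutant human SOD1 transgene and model amyotrophic lateral sclerosis. The 3 control libraries came from SOD1G93A mice that the labels call controls, and the 3 ultrasound libraries from SOD1G93A mice that received ultrasound, in the series title called low-intensity pulsed ultrasound. All 6 therefore carry the transgene, and no library of mice without it enters the comparison. The labels give neither the promoter of the transgene, nor the sham handling of the controls, nor the settings of the ultrasound, and beyond the word mouse nothing states that each library is a different animal. The p-values then measure the spread between these libraries, which may in part be technical.

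Total counts ranged from 38202541 in control 3 to 60088636 in control 2. The 18S ribosomal RNA gene took 4.68% of the counts in control 3 and 9.18% in ultrasound 2, against 0.561% to 1.67% in the other 4 libraries. Control 3 also stood apart in the summed level of 9 olfactory bulb genes, at 103.8 FPKM against 5.96 to 10.01 FPKM elsewhere. The marker of cortical excitatory neurons Slc17a7, the vesicular glutamate transporter, lay between 161.5 and 247 FPKM, and the interneuron peptide Sst between 132 and 171 FPKM, so these neuronal markers were present in every library. All 12 striatal markers passed the level filter, with sums given beside Gabra2. The sum of 12 excitatory neuron markers ranged from 266 to 316 FPKM in controls and from 289 to 369.7 FPKM after ultrasound, and that of 13 interneuron markers from 400.0 to 508 FPKM and from 368 to 504 FPKM. The motor cortex was measured in bulk, where fewer cells of a type and less RNA per cell cannot be told apart.

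The start regions of Gabra3, Gabra4 and Gabrb2 are shown because they contrast a window without any CG dinucleotide, a window with GC boxes and a window with a TATA box close to the start; Gabra2, not shown, had the highest G and C content at 70.0%. Upstream windows of 250 bases were matched for 6 of the 7 members, 10 windows in all, from RefSeq on GRCm38.p6, and Gabrd had no match. Bases inside annotated exons are left out, which shortens the Gabra4 window to 195 bases. Capitals mark matches on either strand to the first 4 of 6 motifs searched. The first motif searched was the TATA element, spelled TATAAA. The second was the binding sequence of Sp factors, or GC element, spelled GGGCGG. The third was the promoter element named after its letters CCAAT, and the fourth was the EGR motif GCGNGGGCG, which overlaps the GC element in Gabrb2.
Gabra3, chrX:72656920-72657169, minus strand: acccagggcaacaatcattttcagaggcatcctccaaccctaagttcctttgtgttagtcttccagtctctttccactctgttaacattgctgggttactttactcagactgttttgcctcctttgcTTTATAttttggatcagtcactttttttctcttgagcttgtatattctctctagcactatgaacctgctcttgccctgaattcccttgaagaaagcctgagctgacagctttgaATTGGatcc
Gabra4, chr5:71658364-71658558, minus strand: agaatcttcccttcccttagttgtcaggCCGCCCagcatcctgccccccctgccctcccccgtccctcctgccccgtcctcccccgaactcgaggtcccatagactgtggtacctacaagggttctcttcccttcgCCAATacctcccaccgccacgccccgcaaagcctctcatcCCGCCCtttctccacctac
Gabrb2, chr11:42420190-42420439, plus strand: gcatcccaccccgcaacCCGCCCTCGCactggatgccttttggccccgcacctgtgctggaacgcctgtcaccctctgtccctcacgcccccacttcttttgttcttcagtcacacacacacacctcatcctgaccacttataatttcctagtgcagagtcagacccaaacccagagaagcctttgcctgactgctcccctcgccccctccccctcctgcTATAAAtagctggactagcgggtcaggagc

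The Gabra3 window printed, window 1 of this gene, had 42.4% G and C and no CG dinucleotide. Window 2 of Gabra3 had 39.2% and also no CG dinucleotide. The full Gabra4 window had 61.2%, and the median was 52.4% over 32851 windows of all genes. The Gabrb2 window printed, window 1 of this gene, held TATAAA on its own strand 30 bases before its annotated start. Windows 2 and 3 of Gabrb2, at annotated starts further downstream, held 0 matches to TATAAA. The motif is found in 12.4% of all windows. GC boxes occur in 32.7%, CCAAT boxes in 33.8% and the EGR motif in 4.7% of all windows. A search for the cyclic AMP response element TGACGTCA, found in 1.55% of all windows, gave no match in the members' windows. The E-box CANNTG, found in 66.2% of all windows, is not capitalised; among the windows printed it occurs once, in Gabrb2, 202 bases before the start. These matches describe letters in a window and are not binding sites.

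Gabra2, Gabra4 and Gabrb1 lie in 1 cluster on chromosome 5. In GENCODE M21 on GRCm38, Gabra2 spans chr5:70957597-71095849 and Gabra4 chr5:71569749-71658308, both on the minus strand, and Gabrb1 spans chr5:71658113-72149037 on the plus strand. Gabra4 and Gabrb1 are thus arranged head to head and their annotated gene bodies overlap by 196 bases. Gabrb2 lies at chr11:42419757-42629028 on the plus strand, Gabrd at chr4:155384980-155398112, Gabra5 at chr7:57407672-57510059 and Gabra3 at chrX:72432681-72656848, these 3 on the minus strand. Gabra5 overlaps 2 genes on the opposite strand, by 92588 bases in all, and Gabrb1 overlaps 4 annotated genes, Gabra4 among them. The protocol marks strand, but no source used here says whether counting used it, so the levels of Gabra4, Gabra5 and Gabrb1 are less certain than the others. Of the 50-base words in the Gabra5 transcripts, 3.59% also occur in an overlapping noncoding gene, against at most 0.548% for the other members, and 0% for Gabra4, Gabrb1, Gabrb2 and Gabrd.

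None of the 7 subunits passed the test between ultrasound and control, although 6 of 7 had a higher mean level with ultrasound. The fold changes were small, from 0.959-fold for Gabrd to 1.40-fold for Gabrb1. Called genes made up 0.00635% of all genes tested, which is 1 gene, and 0 of 7 members were called by edgeR's quasi-likelihood test, by DESeq2 or by limma on log2 FPKM. The smallest unadjusted edgeR p among them was that of Gabrb1, the only 1 of 7 with an unadjusted p under 0.05, a level that 4.77% of all genes reached, 2.45% higher and 2.32% lower with ultrasound. No member had groups that did not overlap in FPKM (0 of 7), against 10.8% of all genes tested (3.7% higher and 7.08% lower). The median log2 fold change of the 7 was 0.27, beside -0.01 for all tested genes, of which 48.8% were above 0. The 7 values come from the same 6 libraries and are not independent of each other.

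**Figure D1:**
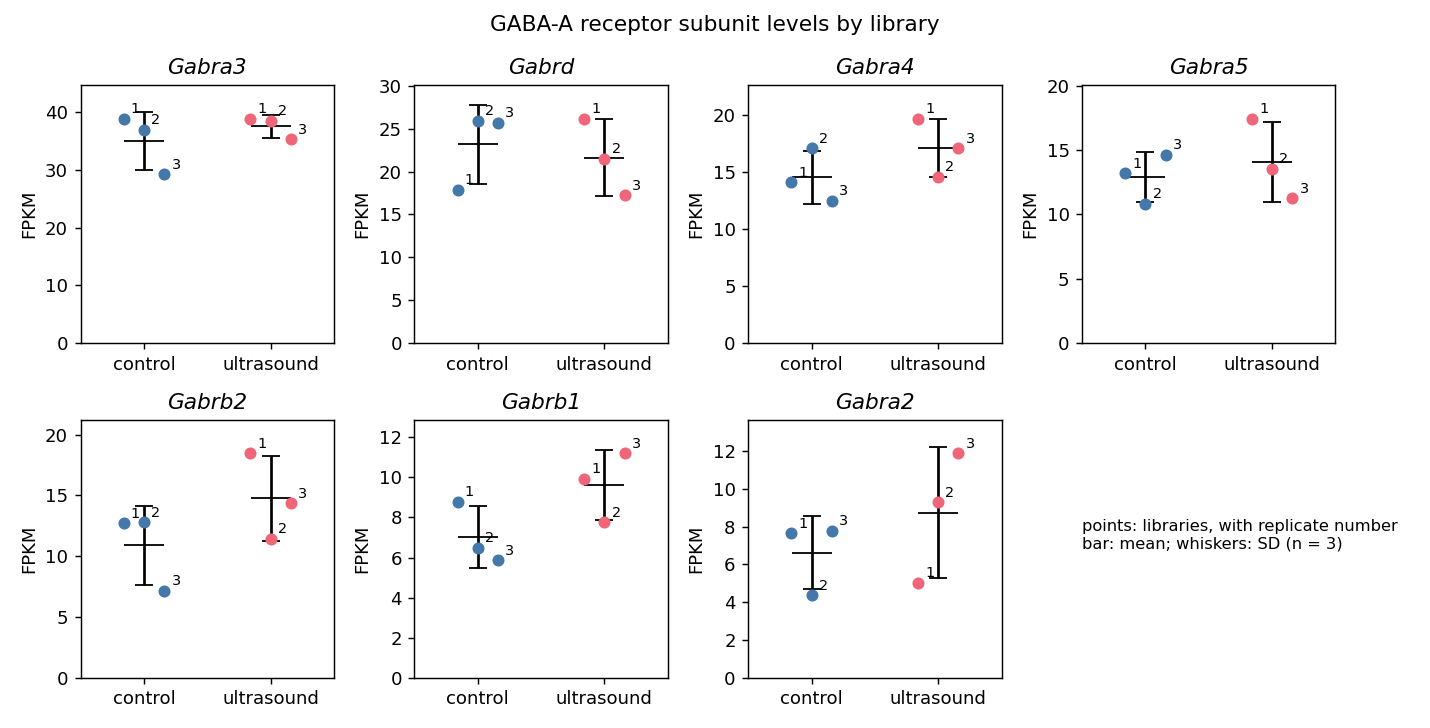
Level of each subunit in FPKM (vertical axis from 0) in the 3 control and 3 ultrasound libraries, each point labelled with its replicate number, with the mean as a bar and the SD as whiskers (n = 3). The groups overlap for each of the 7 genes, and control 3 is the lowest library for Gabra3, Gabra4, Gabrb1 and Gabrb2.

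Gabra3 was the most abundant of the alpha members. Its protein forms receptors that bind benzodiazepines and is known from deep cortical layers and from monoaminergic neurons. Controls 1 to 3 had 38.9, 37.0 and 29.3 FPKM, and ultrasound libraries 1 to 3 had 38.9, 38.5 and 35.3 FPKM. Control 3 was the low library and the other 5 lay close together, so the groups overlapped. The mean was 35.1 ± 5.06 FPKM for controls, and 37.6 ± 1.98 FPKM after ultrasound (SD, n = 3). The log2 fold change was 0.14 (SE 0.14, edgeR adjusted p = 0.976), with a 95% interval from 0.878-fold to 1.38-fold. Without control 3 it was 0.03. Gabra3 was the steadiest member, with a coefficient of variation of 10.2% over the 6 libraries, against a median of 14.6% for tested genes with a mean of at least 5 FPKM.

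Gabra4 encodes an alpha subunit that is insensitive to classical benzodiazepines and often pairs with delta outside the synapse. Its levels were 14.1, 17.1 and 12.5 FPKM in controls and 19.7, 14.6 and 17.1 FPKM after ultrasound. Ultrasound 1 was highest and control 3 lowest, while control 2 reached the level of ultrasound 3. The groups overlapped, with means of 14.6 ± 2.33 and 17.2 ± 2.55 FPKM (SD, n = 3). The log2 fold change was 0.27 (SE 0.15, edgeR adjusted p = 0.973).

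Gabra5 encodes the alpha subunit of receptors that carry tonic current, best known from the hippocampus and also present in deep cortical layers. It had 13.2, 10.8 and 14.7 FPKM in controls and 17.5, 13.5 and 11.3 FPKM after ultrasound. The highest and the second lowest value both came from ultrasound libraries, so the spread within that group was larger than the difference between the means of 12.9 ± 1.94 and 14.1 ± 3.12 FPKM (SD, n = 3). The log2 fold change was 0.16 (SE 0.20, edgeR adjusted p = 0.981).

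Gabra2 varied most between libraries. Its protein is a benzodiazepine-sensitive alpha subunit of synapses on the cell body and axon initial segment, and the gene is also strongly expressed in hippocampus and striatum. Its levels were 7.66, 4.38 and 7.79 FPKM in controls and 5.04, 9.31 and 11.9 FPKM after ultrasound. Control 2 and ultrasound 1 were low, ultrasound 3 was highest, and the range was 2.71-fold. The means were 6.61 ± 1.93 and 8.75 ± 3.46 FPKM (SD, n = 3), and the log2 fold change of 0.44 (SE 0.37, edgeR adjusted p = 0.976) had a wide 95% interval from 0.745-fold to 2.48-fold. Without ultrasound 1 the log2 fold change was 0.73 with an unadjusted p of 0.0345 and an adjusted p of 0.998 in edgeR. It was 0.21 without control 2 and 0.19 without ultrasound 3, so single libraries moved it by more than 1.5 times. The square root of its fitted dispersion was 0.326, against 0.166 for Gabra3 and a median of 0.190 for tested genes with a mean of at least 5 FPKM.

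Marker sums of neighbouring brain regions are given beside Gabra2. The sum of 10 hippocampal marker genes, of which 7 passed the level filter and Iyd had no count in at least 1 library, was 80.1, 40.6 and 87.7 FPKM in controls and 40.7, 60.3 and 95.7 FPKM after ultrasound. Control 2 and ultrasound 1 were the lowest of the 6 for this sum, as they were for Gabra2, and ultrasound 3 was the highest for both. The sum came mainly from Wfs1, at 20.2 FPKM in control 2 and 60.1 FPKM in control 3, a gene that cortex and striatum express as well, and from Cpne7, at 6.53 FPKM in ultrasound 1 and 28.2 FPKM in ultrasound 3; the median of the 10 genes, each centred on its own mean, stayed between -0.10 and 0.24 on the log2 scale. The 12 striatal genes summed to 313, 159.6 and 628 FPKM in controls and to 396, 389.5 and 629.8 FPKM after ultrasound. The striatal sum was lowest in control 2, as was Gabra2, but second lowest in control 1 and not in ultrasound 1. All 12 striatal genes had a log2 fold change above 0, with a median of 0.44, the size of that of Gabra2, and 0 of the 12 had an unadjusted p under 0.05 in edgeR. Ultrasound 3 also had 243 FPKM summed over 8 choroid plexus genes, against 2.65 to 14.7 FPKM elsewhere. Ttr alone, the transthyretin gene, made up 235 FPKM of it, Clic6 was higher in control 3 (3.49 FPKM) than in ultrasound 3 (3.23 FPKM), and Folr1, Kcne2, Otx2 and Tmem72 had no count in at least 1 library. The part of these markers in the Gabra2 result was not tested.

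**Figure D2:**
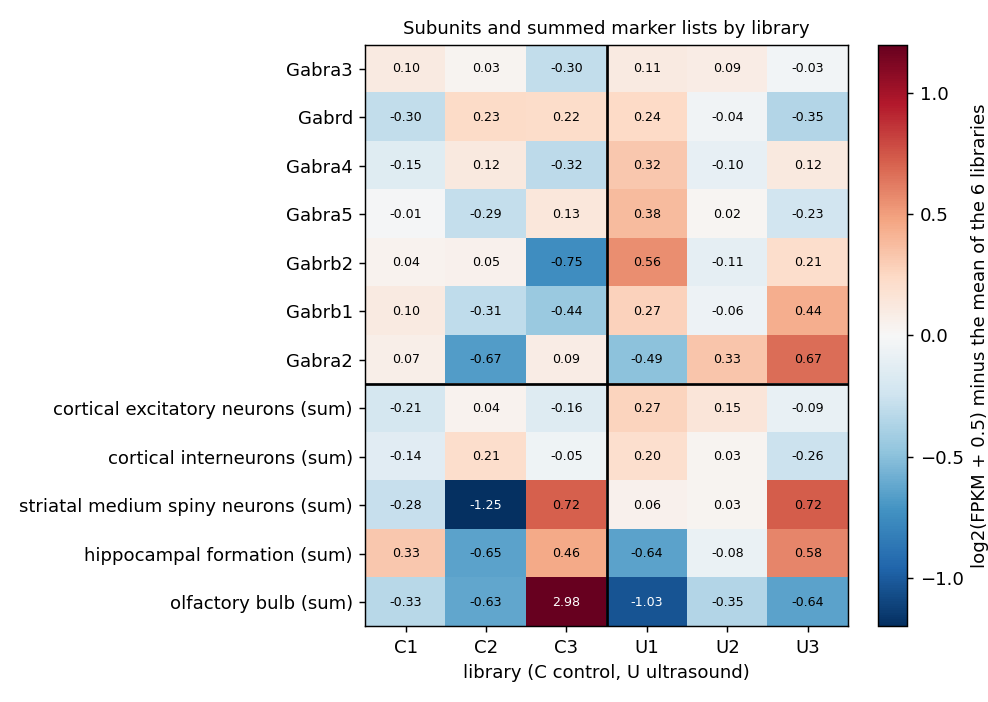
Each cell gives log2(FPKM + 0.5) minus the row's mean over the 6 libraries, for the 7 subunits (above the line) and for the summed FPKM of 5 marker lists (below it), with controls C1 to C3 left and ultrasound libraries U1 to U3 right. Gabra2 and the hippocampal sum are both lowest in C2 and U1 and highest in U3, and the olfactory bulb sum stands out in C3 (2.98, beyond the end of the colour scale).

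Of the beta members, Gabrb1 had the smallest p of the 7. Beta subunits complete the GABA site and carry the pore residues on which several anaesthetics act, and Gabrb1 transcripts are found in glia as well as in neurons. Its levels were 8.79, 6.48 and 5.85 FPKM in controls and 9.95, 7.76 and 11.2 FPKM after ultrasound. Control 1 lay above ultrasound 2, and the other ultrasound libraries lay above each control. The means were 7.04 ± 1.54 and 9.64 ± 1.74 FPKM (SD, n = 3). The log2 fold change was 0.48 (SE 0.19), a 1.40-fold difference with a 95% interval from 1.03-fold to 1.89-fold, and it did not pass the test, with an unadjusted p of 0.0333 and an adjusted p of 0.973 in edgeR. It ranked 491 among 15740 genes by p. Without control 1 the unadjusted p was 0.00461 and without ultrasound 3 it was 0.115, and the adjusted p did not fall below 0.926 in edgeR with any single library left out.

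Glial markers were examined beside Gabrb1. The sum of 10 astrocyte genes was 591 to 689.1 FPKM in controls and 621 to 758 FPKM after ultrasound, and that of 8 oligodendrocyte precursor genes was 59.1 to 85.3 FPKM and 72.7 to 92.9 FPKM. No marker of either list was without counts in any library. Of the 8 precursor genes 7 had a log2 fold change above 0, with a median of 0.25, and of the 10 astrocyte genes 6, with a median of 0.05. The precursor proteoglycan gene Cspg4 had 0.79 (SE 0.28, unadjusted p = 0.0249, adjusted p = 0.973 in edgeR), and the astrocyte water channel gene Aqp4 had 0.55 (SE 0.18, unadjusted p = 0.017, adjusted p = 0.973 in edgeR). In TMM-scaled CPM the groups separated upwards for 1 of 10 astrocyte genes, Aqp4, and for 1 of 8 precursor genes, the factor Olig2. The share over all genes tested was 5.69%. Olig2 had a log2 fold change of 0.44 (SE 0.21, unadjusted p = 0.065, adjusted p = 0.973 in edgeR). The precursor gene below 0 was C1ql1, at -0.52 (SE 0.58). Both sums were highest in ultrasound 3, the library that was also highest in Gabrb1 and in choroid plexus genes, and lowest in control 2, whereas Gabrb1 was lowest in control 3. Without ultrasound 3 the Gabrb1 log2 fold change was 0.38. Their part in the Gabrb1 values was not tested.

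Gabrb2 is the beta subunit of the most common synaptic receptor type of the adult cortex. It had 12.7, 12.8 and 7.17 FPKM in controls and 18.5, 11.4 and 14.4 FPKM after ultrasound. Control 3 was low and ultrasound 1 high, and ultrasound 2 lay below controls 1 and 2. The means were 10.9 ± 3.23 and 14.8 ± 3.53 FPKM (SD, n = 3); the log2 fold change was 0.47 (SE 0.25, edgeR adjusted p = 0.973). Without control 3 the log2 fold change fell to 0.25, and without ultrasound 1 to 0.30, each less than the full value by over 1.5 times. Control 3 is the library with olfactory bulb transcripts and 4.68% of 18S RNA. It was also the lowest of the 6 libraries for 7 of 12 cortical excitatory neuron markers, and the median of the 12, each centred on its own mean, was -0.52 there and between -0.11 and 0.44 elsewhere on the log2 scale. By the sum of these 12 markers, control 3 at 275 FPKM lay above control 1 at 266 FPKM. Ultrasound 1 had the highest sum, at 369.7 FPKM, of which Slc17a7 alone gave 242 FPKM. By the centred median control 2 was highest, at 0.44 against 0.23 in ultrasound 1. Control 2 was the highest library for 5 of the 12 markers and ultrasound 1 for 3. Ultrasound 1 was also the highest library for 8 of 8 mature oligodendrocyte markers. The part of these in the low and high Gabrb2 values was not tested.

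Gabrd encodes the delta subunit, which in the forebrain marks receptors outside the synapse, for instance in neurogliaform and granule cells. Its levels were 17.9, 25.9 and 25.7 FPKM in controls and 26.2, 21.5 and 17.2 FPKM after ultrasound. High and low libraries occurred in both groups. The means of 23.2 ± 4.59 and 21.6 ± 4.47 FPKM (SD, n = 3) differed by less than the SD. The log2 fold change was -0.06 (SE 0.20, edgeR adjusted p = 0.997), with a 95% interval from 0.693-fold to 1.33-fold. Its sign turned positive when control 2, control 3 or ultrasound 3 was left out (0.02, 0.03 and 0.09).

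**Figure D3:**
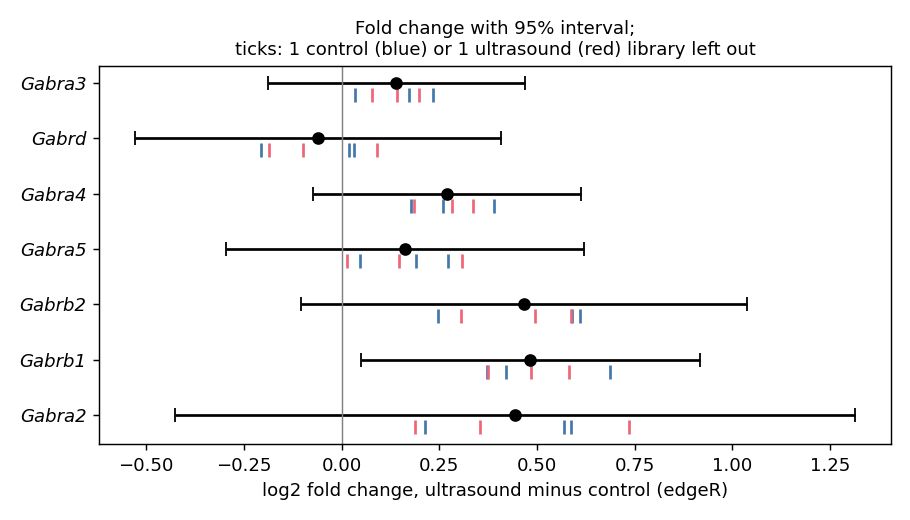
Log2 fold change (horizontal axis, ultrasound minus control) of each subunit with its 95% interval, derived from the edgeR test. Short ticks below it give the same value with 1 control library (blue) or 1 ultrasound library (red) left out. The interval of Gabrb1 alone lies above 0 (0.05 to 0.92 on the log2 scale) before adjustment over all genes, and the ticks of Gabrd fall on both sides of 0.

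In order of mean FPKM in controls, Gabra3 came first, then Gabrd at 23.2, Gabra4 at 14.6, Gabra5 at 12.9, Gabrb2 at 10.9, Gabrb1 at 7.04 and Gabra2 at 6.61 FPKM. Gabra3 and Gabrd each lay above the next gene in every control, whereas the ranges of each later pair of neighbours overlapped. In ultrasound libraries Gabra3 again lay above Gabrd without overlap, at 37.6 against 21.6 FPKM. There Gabrb2 stood before Gabra5, and the ranges of Gabra5 and Gabrb1 did not overlap.

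Shares within a class were compared next. Among the 4 alpha members, Gabra3 supplied 50.6 ± 4.28% of the summed FPKM for controls, and 48.5 ± 2.03% in ultrasound libraries (SD, n = 3). Gabra4 supplied 21.1 ± 3.12% and 22.1 ± 2.58%, Gabra5 18.8 ± 3.68% and 18.1 ± 3.30%, and Gabra2 9.60 ± 2.98% and 11.4 ± 4.81%. Gabrb1 made up 39.8 ± 5.73% of the summed beta members in controls and 39.8 ± 4.45% in ultrasound libraries. Each of these differences between group means was smaller than the larger of its 2 SDs; that of Gabra3 slightly exceeded the SD of the ultrasound libraries.

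**Figure D4:**
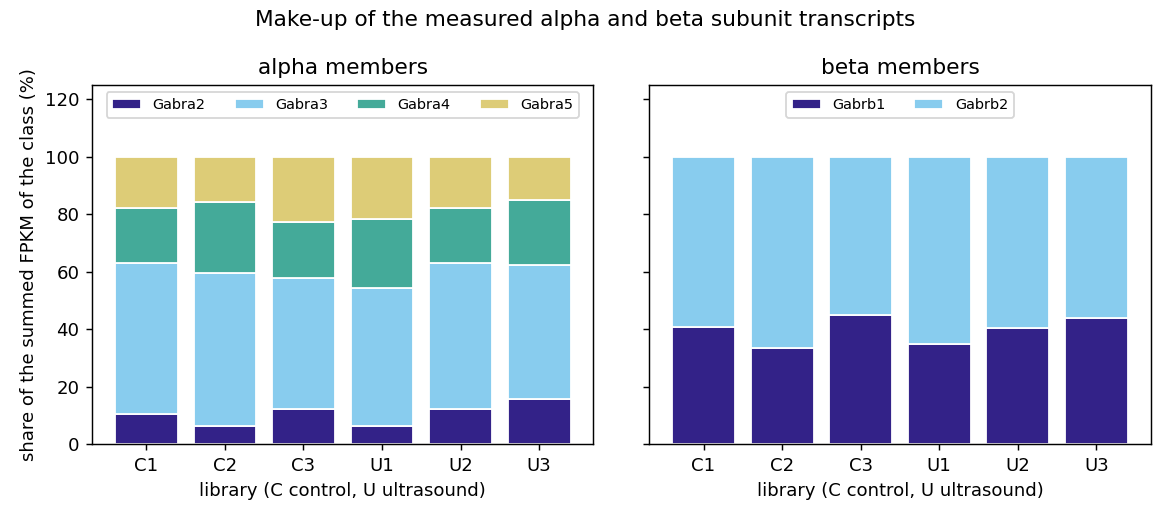
Share of each subunit (%) in the summed FPKM of the 4 alpha members (left) and the 2 beta members (right), 1 stacked bar per library, controls C1 to C3 and ultrasound libraries U1 to U3. Gabra3 holds 45.6% to 53.4% of the alpha members in each library, and the Gabra2 share ranges from 6.21% to 15.7%.

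Ratios of 2 subunits within a library, which do not depend on library scaling, were compared for 4 pairs with a two-sided exact permutation test that cannot fall below 0.1 with 3 libraries against 3. Gabrb1 over Gabrb2 was 0.690, 0.507 and 0.817 in controls and 0.539, 0.679 and 0.780 in ultrasound libraries, a log2 difference of 0.00 (exact permutation p = 1). Gabrd over Gabra4, the pair that assembles outside the synapse, was 1.26, 1.51 and 2.06 in controls and 1.33, 1.47 and 1.01 in ultrasound libraries. The log2 difference was -0.34, with an exact permutation p of 0.4. Gabra5 over Gabra2 was 1.72, 2.47 and 1.88 in controls and 3.46, 1.46 and 0.949 in ultrasound libraries, with the highest and lowest value both after ultrasound (log2 difference -0.25, exact permutation p = 0.8). Gabra3 over Gabra2 ranged from 3.77 to 8.45 in controls against 2.97 to 7.72 after ultrasound (log2 difference -0.25, exact permutation p = 0.7). The p adjusted over the 4 pairs was 1 for each.

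The summed level of the 7 members was 113, 114 and 103.0 FPKM in controls and 135.7, 116.7 and 118 FPKM after ultrasound. Each ultrasound library lay above each control on this scale and in TMM-scaled CPM (558 to 664 in controls, 719 to 765 in ultrasound libraries). As a share of all counts they overlapped, with 0.0554% to 0.0670% for controls against 0.0663% to 0.0775% in ultrasound libraries, where ultrasound 2 is the library richest in 18S RNA. The members were chosen with earlier results of these data known, so this sum is a description and carries no test.

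Members also differed in which library was high. In FPKM, ultrasound 1 was the highest library for Gabra3, Gabra4, Gabra5, Gabrb2 and Gabrd (5 of 7), and ultrasound 3 for Gabra2 and Gabrb1. In TMM-scaled CPM, Gabra3 was instead highest in ultrasound 2, at 183 against 168 in ultrasound 1. Gabrd was there highest in control 3, at 83.4 against 83.0 in ultrasound 1. Control 3 was lowest for 4 of 7, control 2 for Gabra2 and Gabra5, and ultrasound 3 for Gabrd. Likeness of 2 profiles was measured as the root mean square difference of log2(FPKM + 0.5), each centred on its own mean over the 6 libraries. Among members, Gabra3 and Gabra4 were closest (0.17), followed by Gabra4 and Gabrb2 (0.22), and Gabra2 and Gabrb2 were farthest apart (0.675). The head-to-head pair Gabra4 and Gabrb1 differed by 0.25.

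Of 6785 other genes with a mean of at least 5 FPKM, Dab2ip was closest to Gabra4 (0.03), Nell2 to Gabra3 (0.03), Hmgb3 to Gabrd (0.05), Anks1b to Gabrb1 (0.05), Pcdh7 to Gabra5 (0.08), Adcy9 to Gabrb2 (0.09) and Sowaha to Gabra2 (0.14). These names are a description over 6 libraries.

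Transcripts of synapse scaffold and receptor trafficking genes did not pass either. Of 17 scaffold and trafficking genes, 0 passed in edgeR, 10 had a log2 fold change above 0 and 7 below, with a median of 0.03. Gphn, the gephyrin scaffold under inhibitory synapses, had -0.02 (SE 0.15), and Nlgn2, the adhesion protein of inhibitory synapses, had -0.14 (SE 0.14). Bsn, the active zone scaffold bassoon, had 28.5, 25.5 and 18.1 FPKM in controls and 31.5, 31.8 and 32.7 FPKM after ultrasound, which did not overlap. Its log2 fold change was 0.46 (SE 0.17, unadjusted p = 0.0296, adjusted p = 0.973 in edgeR). It was 1 of 17 in this list whose groups separated upwards in TMM-scaled CPM, as did 5.69% of all genes. Lhfpl4, which anchors the receptor to neuroligin, had 0.27 (SE 0.14), and Trak1, a mitochondrial and receptor transport adaptor, -0.44 (SE 0.20).

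Transmitter supply showed no called gene among 8 (edgeR, 0 of 8, also 0 at an unadjusted p under 0.05), with a median log2 fold change of -0.08. The synthetic enzyme Gad1 had 36.2, 45.9 and 81.0 FPKM in controls and 45.2, 32.1 and 45.7 FPKM after ultrasound. Control 3 was far above the other 5 libraries, and the log2 fold change was -0.38 (SE 0.30). The second synthetic enzyme Gad2 had 0.05 (SE 0.38) and the vesicular GABA transporter Slc32a1 -0.10 (SE 0.40), each again highest in control 3, the library with olfactory bulb transcripts, whose part in these values was not tested. The transporter Slc6a13 had -0.27 (SE 0.33), and Aldh5a1, which clears the breakdown product succinic semialdehyde, 0.07 (SE 0.13).

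The metabotropic GABA-B receptor genes also stayed below the threshold in edgeR, with 0 of 5 called and 0 at an unadjusted p under 0.05. The log2 fold change was 0.13 for Gabbr1 (SE 0.11) and 0.31 for Gabbr2 (SE 0.22), which stood at 21.96 FPKM in control 3 and between 39.3 and 43.3 FPKM in the other 5 libraries. The auxiliary subunits Kctd16 and Kctd8 had 0.46 (SE 0.29) and -0.48 (SE 0.40).

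Chloride transport sets whether GABA inhibits or excites. Of 7 tested genes 0 were called by edgeR, with 0 at an unadjusted p under 0.05, 3 above 0, 4 below and a median log2 fold change of -0.13. Slc12a5, the chloride exporter of mature neurons, had 48.6, 46.2 and 67.7 FPKM in controls and 53.1, 42.0 and 47.7 FPKM after ultrasound, a log2 fold change of -0.16 (SE 0.17). The importer Slc12a2 had 0.23 (SE 0.20). Slc4a3, an anion exchanger, lay at 22.5, 24.0 and 29.3 FPKM in controls and at 20.04, 19.2 and 21.0 FPKM after ultrasound. Its groups did not overlap in FPKM, lower with ultrasound, as was so for 7.08% of all genes tested. The log2 fold change was -0.30 (SE 0.14, unadjusted p = 0.0619, adjusted p = 0.973 in edgeR). Slc4a10 had 0.43 (SE 0.23) and the chloride channel Clcn2 -0.32 (SE 0.18).

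Among 9 kinases and anchoring enzymes that act on the receptor, 0 were called by edgeR, 7 were above 0 and the median log2 fold change was 0.17. Prkcb, a protein kinase C isoform known to phosphorylate beta subunits, had 32.4, 30.9 and 22.5 FPKM in controls and 38.9, 37.1 and 35.8 FPKM after ultrasound. Each ultrasound library lay above each control, with a log2 fold change of 0.42 (SE 0.15, unadjusted p = 0.0258, adjusted p = 0.973 in edgeR). Camk2b, a subunit of calcium/calmodulin-dependent kinase, had a log2 fold change of 0.23, also without overlap (SE 0.11, unadjusted p = 0.0782, adjusted p = 0.973 in edgeR). In TMM-scaled CPM the groups separated upwards for 2 of the 9 genes, against 5.69% of all genes tested.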

How the data were processed

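Per the file headers, the deposited table holds a raw count and an FPKM value for each gene and library. The build mm10 and, among the tools, StringTie 1.3.4d, HISAT2 2.0.4, cutadapt 1.9, edgeR and DESeq2 are named by the submitters' processing notes, with no role for any; no source used here names the counting tool or its strand setting. The table's coordinates are offset from GRCm38 for all 7 members, so GENCODE M21 positions matched by gene ID are given. Another 12 columns were not used.

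Genes averaging 0.5 FPKM or more were fitted with edgeR 4.0.16 (quasi-likelihood, TMM, robust, no covariate) in R 4.3.3, with Benjamini-Hochberg adjustment over 15740 genes and a threshold of 0.05. Log2 fold changes are ultrasound minus control. In simulated counts over 15740 genes the test recovered 0 of 67 genes changed 1.5-fold, 22.4% of 67 changed 2-fold and 77.3% of 66 changed 4-fold, with 8 calls among unchanged genes. DESeq2 1.42.0 and limma 3.58.1 were alternatives. No libraries were identical. Member counts ranged from 1607 to 9908 per library.

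The members and lists were chosen with earlier results of these data known. Named genes are the 7 members, up to 3 genes of smallest p in each of 5 companion lists, a few fixed partners, and the closest profile to each member, skipping predicted genes and pseudogenes. The markers Cpne7, Ttr, Clic6, Cspg4, Aqp4, Olig2 and C1ql1 were named after their values were seen. Some results under this rule are not reported here. Of the 12 marker lists, thalamus summed to 15.6 to 21.2 FPKM, cerebellum to 8.77 to 18.7, choroid plexus to 2.65 to 243, mature oligodendrocytes to 261 to 481 and microglia to 112 to 142 FPKM over the libraries, and the other 7 are given with the results.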

Additional observations from a re-analysis of the deposited data

How the results depend on the processing

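No member passed the threshold under any of the 16 alternatives run for it, whose edgeR, DESeq2 or limma adjusted p stayed at or above 0.760 (Gabrb1 in DESeq2). Gabra2, Gabra4, Gabra5, Gabrb1 and Gabrb2 kept a positive sign in all 16. The unadjusted p of Gabrb1 was 0.0640 in edgeR with library totals only, and 0.0624 to 0.0638 in limma over the pseudocounts. It was 0.0244 in DESeq2. In edgeR it was 0.0177 to 0.0346 with DESeq2 size factors, no filter, filterByExpr or the replicate block. The Gabra3 log2 fold change was -0.034 without both control 3 and ultrasound 2, and leaving out single libraries gave 0.03 to 0.23. For Gabrd, leaving out single libraries gave -0.21 to 0.0897, with the sign reversed in 3 of 16 alternatives (0.02 without control 2, 0.03 without control 3). With single libraries left out, log2 fold changes ranged from 0.19 to 0.73 for Gabra2, 0.18 to 0.39 for Gabra4, 0.01 to 0.31 for Gabra5, 0.37 to 0.69 for Gabrb1 and 0.25 to 0.61 for Gabrb2. The number of genes past the threshold, 1 in the main test, was 2 with no filter, 29 in DESeq2, 0 in limma at each pseudocount (0.1, 0.5 and 1, with 741, 751 and 750 genes at an unadjusted p under 0.05), 8 without both control 3 and ultrasound 2, and 1 to 4 with single libraries left out; none of these counts held a member. Without TMM scaling the median of all genes moved to -0.06, and the higher share among genes of unadjusted p under 0.05 was 32.7%, against 51.4% with TMM and 36.5% in limma with a pseudocount of 0.5. The log2 ratio of Gabrb1 over Gabrb2 was 0.13 without both libraries and -0.19 to 0.15 with single libraries left out; those of Gabra5 over Gabra2 and Gabra3 over Gabra2 ranged from -0.77 to 0.17 and from -0.63 to 0.0619, so the sign changed with the library left out. The cause was not tested. In the labels, same-numbered libraries shared a number only. Their deviations from the group mean correlated at -0.03, 0.01 and 0.06 across genes. Those of differently numbered libraries correlated at -0.14 to 0.12. Such correlations cannot decide whether libraries were paired. With the replicate block 1 gene and 0 members passed. In simulated counts 0 of 67 genes changed 1.5-fold were called. The changed genes were drawn from the 15740 after leaving out those of lowest mean CPM. The simulation was not run at the members' own dispersions.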
